A study of Mus musculus with 12 samples.

Results

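Conventional dendritic cells (DCs) of the mouse spleen take up antigen and present it to T cells, and they fall into types 1 and 2. The genes described here are 8 factors and markers of type 2 (cDC2): the surface genes Sirpa, Itgam, Cd4, Clec4a4 and Esam, the receptor gene Notch2, the Notch target Dtx1, and the transcription factor gene Klf4. They were found in the gene count table by name, and the list of names was drawn up with earlier results of these data known. All 8 were present among 54532 genes, and all 8 passed the filter on low counts, which left 14293 genes to test.

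RNA was sequenced from spleen cells selected for CD11c after antibodies (CD90.2 for T, CD45R for B and CD49b for NK cells) had depleted lymphocytes. The labels describe the cells as cDC1 and cDC2 together. The mice were WT C57BL6 or SLC29A3-/- C57BL6, called KO here; Slc29a3 encodes a nucleoside transporter of lysosomes. Cells stayed untreated or met STmDfla, an attenuated Salmonella typhimurium, at 10 bacteria per cell: by the design text for 30 min, with 3 h of culture after a wash. The 4 groups hold 3 libraries each, numbered 1 to 3. The deleted stretch of Slc29a3, the age of the mice and how many were used are not stated in the sources used here. No label says whether the libraries of a group are separate animals, and p-values describe the spread of these libraries alone.

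In the spleen, cDC2 carry SIRPα, and a large share of them depends on Notch2. Ligand binding to a Notch receptor frees its intracellular part, which joins the DNA-binding protein RBPJ in the nucleus and turns on targets such as Dtx1. This Notch2-dependent population is known for the surface proteins ESAM, CD4 and DCIR2, the product of Clec4a4. KLF4 supports another branch of cDC2. SIRPα and CD11b, the product of Itgam, are also carried by macrophages, monocytes and neutrophils, CD4 by T cells and plasmacytoid DCs, and ESAM by endothelium and platelets.

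Total gene counts ran from 15693172 to 24074596 per library. Slc29a3 RNA was still counted in KO, at 63.5 to 94.0 CPM (counts scaled to library size with TMM factors) untreated and 124 to 191 CPM treated, below the 99.2 to 110.2 CPM and 197 to 233 CPM of WT. A count over the whole gene cannot check the KO label, since the deleted stretch is not known here. Genes shared by conventional DCs summed to between 17450 and 37940 CPM, and the KO libraries lay below the WT libraries of the same condition. This list holds the CD11c gene used for selection and genes of MHC class II, so it is a weak check of the labelled cell type. KO libraries held more RNA of marker genes of erythroid cells, neutrophils and red pulp macrophages. Bulk RNA cannot tell more such cells from more of this RNA per cell. The 7 erythroid genes summed to 2.87 to 10.25 CPM in the 6 WT libraries and to 1887 to 5204 CPM in the 6 KO libraries. The 9 neutrophil genes summed to 8.36 to 20.5 CPM in WT, against 61.8 to 1137 CPM in KO, and the 9 genes of red pulp macrophages to 354 to 974 CPM and 1027 to 3552 CPM. Libraries numbered 1 stood apart in all 4 groups: they had 4392 to 6238 Y-linked counts with at most 1 count of Xist, while the others had no Y-linked count and 10384 to 18147 counts of Xist, so library 1 of a group does not come from the same animals as libraries 2 and 3. Whether libraries 2 and 3 are separate animals is not stated in the sources used here.

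**Figure D1:**
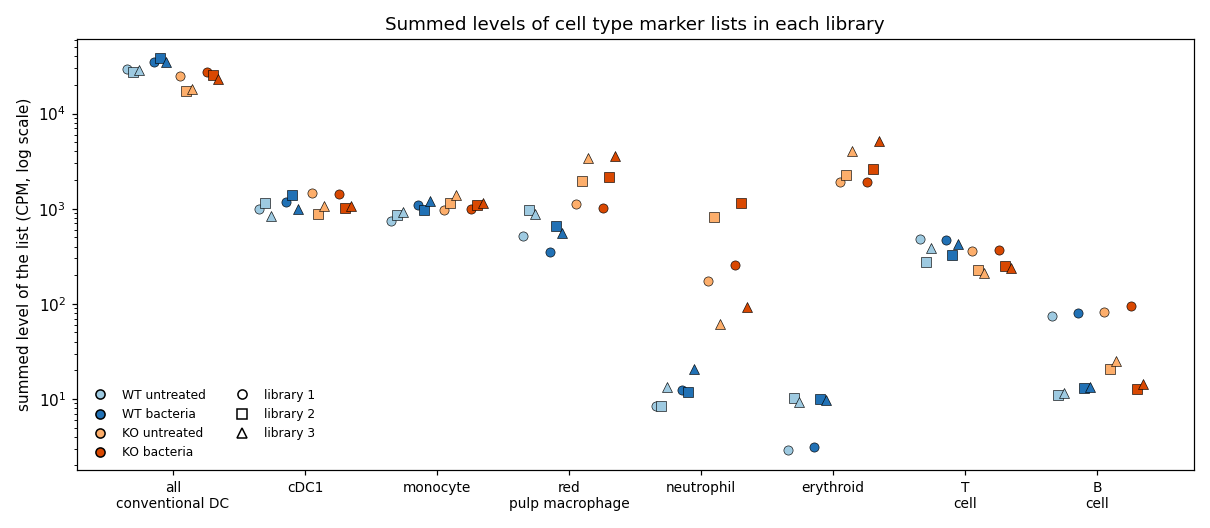
Summed level (CPM, log axis) of 8 marker lists in each of the 12 libraries; colours are the groups and symbols the library numbers. The erythroid, neutrophil and macrophage lists are higher in all 6 KO than in all 6 WT libraries, cDC1 genes overlap, and B cell genes are highest in the libraries numbered 1.

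Between genotypes the 8 genes did not move together. In untreated cells Itgam, Sirpa and Notch2 were higher in KO than in WT, and Dtx1 and Klf4 were lower, at an edgeR adjusted p under 0.05. These 5 of 8 stand beside 13.0% of all genes tested; 3 were higher, where 9.50% of all genes were, and 2 were lower, where 3.46% were. In treated cells Itgam was again higher and Dtx1 and Klf4 again lower, 3 of 8 against 14.1% of all genes (9.21% higher, 4.89% lower). DESeq2 gave 6 of 8 untreated and 4 of 8 treated, and limma-voom 5 and 3. The count over all genes was 1852 untreated, and as low as 863 without WT library 2 or 3 or KO library 2 or 3; it was 2016 treated, and as low as 1028 without WT library 3 or KO library 2 or 3. Levels did not overlap between genotypes for 7 of the 8 genes in untreated cells, beside 37.4% of all genes, and for 7 in treated cells, beside 28.8%. The median difference of the 8 genes was -0.53 log2 untreated (0.0059 over all genes) and -0.25 log2 treated (-0.0051 over all genes). In bulk RNA, fewer cells of a type and less RNA per cell cannot be told apart, which holds for each gene described.

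**Figure D2:**
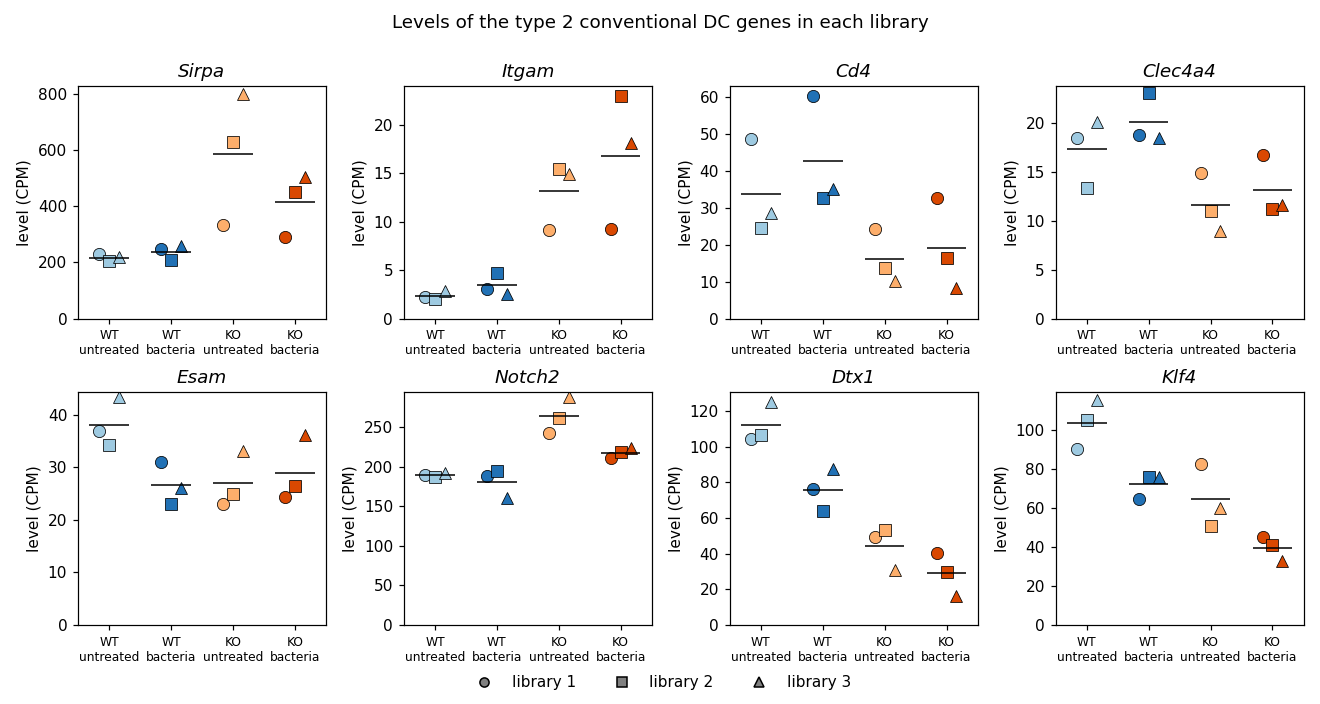
Level (CPM) of each of the 8 genes in every library, with the group mean as a line; symbols are the library numbers. Dtx1 is lower in all 6 KO than in all 6 WT libraries, Itgam is higher, and Cd4 is highest in the library numbered 1 of each group.

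Sirpa (ENSMUSG00000037902, chromosome 2, 129592835 to 129632228, plus strand, mm10 as are all coordinates here) encodes an inhibitory receptor that binds CD47. Libraries 1 to 3 of untreated WT cells had 230.2, 204 and 219 CPM and those of untreated KO cells 332, 627 and 797.5 CPM. Treated WT cells had 247, 209 and 259 CPM and treated KO cells 291, 450.0 and 504 CPM. All KO libraries lay above all WT libraries, and the KO library numbered 1 lay nearest to them in either condition. Untreated KO cells had 2.69-fold the WT level (1.43 log2, SE 0.27, edgeR adjusted p = 0.00545). The treated difference did not pass (0.80 log2, SE 0.27, edgeR adjusted p = 0.0689).

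With the library number as a block, a fit in which 6 of 8 genes and 20.6% of all genes passed, the treated Sirpa difference passed (0.76 log2, edgeR adjusted p = 0.0484). It also passed with DESeq2 (0.79 log2, DESeq2 adjusted p = 0.0224), with only the treated groups fitted (0.81 log2, edgeR adjusted p = 0.0424), with library totals as the scaling (0.87 log2, edgeR adjusted p = 0.0465) and without the libraries numbered 1 (1.03 log2, edgeR adjusted p = 0.00216). The same held on leaving out the treated KO library 1 (1.00 log2, edgeR adjusted p = 0.0234, with 19.6% of all genes) or an untreated KO library, number 1 (0.80 log2, edgeR adjusted p = 0.0124) or 3 (0.80 log2, edgeR adjusted p = 0.0425). In 14 of 22 alternative settings the treated Sirpa difference still did not pass, with an edgeR adjusted p up to 0.237. Sirpb1a, Sirpb1b and Sirpb1c, related genes of the same receptor family, were all 3 higher in KO in both conditions. No stretch of the Sirpa transcript was shared with another gene (at least 100 bases at 95% identity), and sharing among the 3 Sirpb1 genes was not measured. Their levels summed to 12.7, 9.69 and 10.95 CPM in untreated WT and to 43.8, 68.6 and 108 CPM in untreated KO libraries. Sirpb1c differed most of the 3 (3.69 log2, SE 0.45, edgeR adjusted p = 0.000477 untreated; 3.71 log2, SE 0.45, edgeR adjusted p = 0.000497 treated). The red pulp macrophage list had the same order within KO, with 1107, 1933 and 3383 CPM in untreated libraries 1 to 3, and its part in the Sirpa difference was not tested.

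Itgam (ENSMUSG00000030786, chromosome 7, 128062640 to 128118491, plus strand) encodes the αM chain of the integrin CD11b/CD18. Untreated WT libraries held 2.29, 2.05 and 2.84 CPM, against 9.20, 15.4 and 14.9 CPM for untreated KO. Treated WT libraries held 3.04, 4.765 and 2.56 CPM, against 9.29, 23.0 and 18.15 CPM for treated KO. The lowest KO library stood above the highest WT library. The difference was 5.51-fold untreated (2.46 log2, SE 0.36, edgeR adjusted p = 0.00125) and 4.87-fold treated (2.28 log2, SE 0.35, edgeR adjusted p = 0.00176). Neutrophil genes, whose cells carry CD11b, summed to 172, 810.3 and 61.8 CPM in untreated KO libraries, where library 2 was highest, as for Itgam, and library 3 lowest. The macrophage sums in the same libraries, given with Sirpa, were lowest in library 1, as Itgam was. Of 8 monocyte genes 4 were higher and 1 lower in KO in both conditions (median 1.78 log2 untreated and 1.70 treated). Of all genes 9.50% were higher and 3.46% lower untreated, and 9.21% and 4.89% treated. Among the higher were Cx3cr1, a chemokine receptor gene (3.67 log2 untreated), and Csf1r, the receptor gene for a macrophage growth factor (2.75 log2). The lower gene was Nr4a1 (-0.76 log2 untreated). Ccr2 (0.85 log2), Lyz2 (0.16 log2) and Treml4 (-0.39 log2 untreated) passed in neither condition. The 8 monocyte genes summed to 742 to 928 CPM in untreated WT and 964 to 1382 CPM in untreated KO libraries. In treated cells their sums overlapped, at 967 to 1198 CPM in WT and 994.5 to 1147 CPM in KO libraries. The part of neutrophils, macrophages and monocytes in the Itgam and Sirpa differences was not tested.

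Itgam may be counted low in all libraries. Gm49368 overlaps it on the same strand and shares 73.8% of the bases of the longest coding Itgam transcript, and Gm49368 itself held 14 counts over the 12 libraries. How reads that fall in both genes were counted is not stated in the sources used here. The promoter of Itgam, the gene with the largest rise of the 8 in KO, is shown over the 250 bases before its start, 5′ to 3′, from RefSeq (GRCm38.p6), where 4 of the 8 genes were matched. Capitals mark the core of the PU.1 motif, GAGGAA or its reverse complement TTCCTC, bound by a myeloid transcription factor; it matched 2 times here, with no overlap, and is in 23.3% of 32851 promoters of this length.
Itgam, chr7:128062390-128062639, plus strand: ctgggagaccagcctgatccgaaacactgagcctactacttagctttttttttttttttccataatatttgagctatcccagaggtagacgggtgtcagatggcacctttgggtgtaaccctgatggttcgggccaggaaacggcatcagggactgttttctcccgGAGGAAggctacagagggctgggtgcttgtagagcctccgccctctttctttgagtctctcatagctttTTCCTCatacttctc

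The genes listed as SIRPα and CD11b partners moved less evenly. Lck, a T cell kinase gene and not such a partner, is in this list and passed in neither condition. Of 14 genes 5 were higher and 1 was lower in untreated KO cells, and 3 were higher in treated KO cells, beside 9.50% and 3.46% of all genes untreated and 9.21% higher treated. Itgb2, the CD18 chain that pairs with CD11b, stood at 383, 501 and 438 CPM in untreated WT and 649.7, 909 and 1254 CPM in untreated KO libraries, without overlap (1.09 log2, SE 0.29, edgeR adjusted p = 0.029). Itgad, an αD integrin chain known from red pulp macrophages, stood at 4.47, 7.49 and 1.305 CPM in untreated WT and 67.7, 159 and 239 CPM in untreated KO libraries (5.12 log2, SE 0.74, edgeR adjusted p = 0.00147). Itgax, the CD11c chain used for selection, did not pass (0.064 log2, SE 0.16, edgeR adjusted p = 0.852). Ptpn6, the phosphatase SHP-1 that SIRPα recruits, was higher in untreated KO cells (0.67 log2, SE 0.16, edgeR adjusted p = 0.0137).

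**Figure D3:**
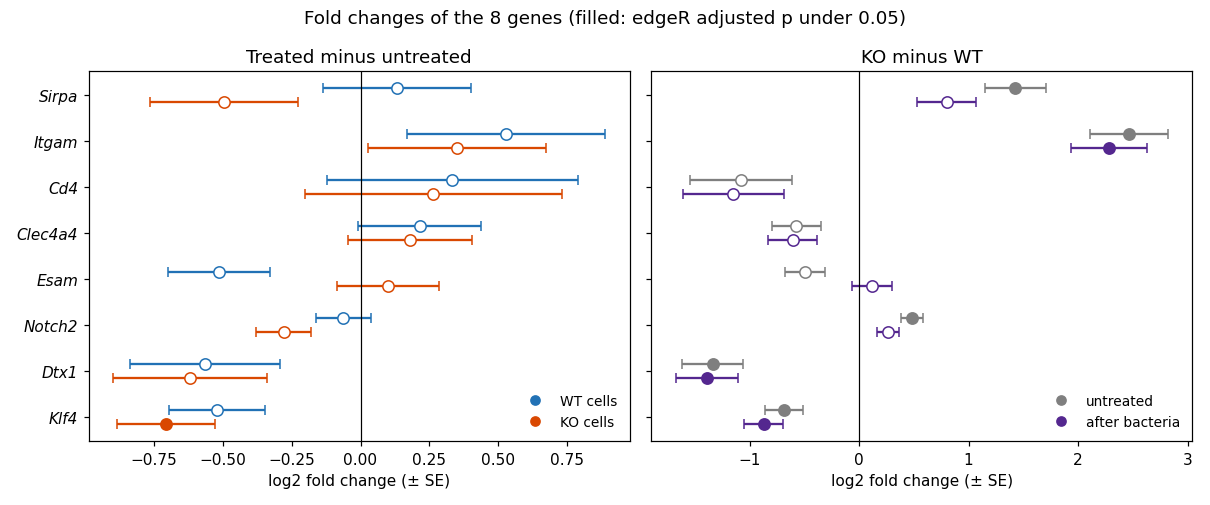
Log2 fold changes with standard errors for the 8 genes, treated minus untreated in each genotype and KO minus WT in each condition; filled points passed an edgeR adjusted p of 0.05. In KO minus WT, Itgam and Sirpa lie to the right of 0 and Dtx1, Cd4 and Klf4 to the left, with Cd4 not filled.

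Notch2 (ENSMUSG00000027878, chromosome 3, 98013527 to 98150361, plus strand) encodes the receptor. It stood at 189, 187 and 192 CPM in untreated WT and 243, 261 and 288 CPM in untreated KO libraries. In treated cells the WT libraries had 188, 195 and 161 CPM and KO had 211, 218.5 and 223 CPM. KO libraries were above WT libraries in each condition, by 1.40-fold untreated (0.48 log2, SE 0.10, edgeR adjusted p = 0.00768); the treated difference did not pass (0.26 log2, SE 0.10, edgeR adjusted p = 0.0964). The untreated call was lost without the untreated WT library 2 (0.43 log2, edgeR adjusted p = 0.0551) or 3 (0.44 log2, edgeR adjusted p = 0.0572) or the untreated KO library 3 (0.37 log2, edgeR adjusted p = 0.076).

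Dtx1 (ENSMUSG00000029603, chromosome 5, 120680202 to 120711927, minus strand), the Notch target, encodes the ubiquitin ligase Deltex 1 and moved the other way. Untreated WT libraries had 104, 107 and 125 CPM and untreated KO libraries 49.05, 53.2 and 30.9 CPM. The treated WT libraries had 76.2, 63.6 and 87.3 CPM and the treated KO libraries 40.3, 29.8 and 16.4 CPM. No KO library reached the lowest WT library. Dtx1 was 2.53-fold lower in untreated KO cells (-1.34 log2, SE 0.28, edgeR adjusted p = 0.0086) and 2.62-fold lower in treated ones (-1.39 log2, SE 0.28, edgeR adjusted p = 0.00792). It passed in both conditions in every setting tried, including each library left out in turn.

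Of 39 tested genes of the Notch pathway, Notch2 and Dtx1 included, 10 were higher and 3 lower in untreated KO cells, and 6 were higher and 5 lower in treated KO cells. Over all genes 9.50% were higher and 3.46% lower untreated, and 9.21% and 4.89% treated. The median was 0.22 log2 untreated and 0.25 log2 treated, against 0.0059 and -0.0051 log2 over all genes. Among receptors, Notch1 stood at 6.92, 6.51 and 6.75 CPM in untreated WT and 15.5, 11.4 and 17.8 CPM in untreated KO libraries (1.15 log2, SE 0.23, edgeR adjusted p = 0.00592). Among ligands, Jag1 was lower in KO, at 26.0, 29.25 and 27.8 CPM against 61.8, 75.9 and 98.8 CPM in untreated cells (-1.51 log2, SE 0.22, edgeR adjusted p = 0.0014). Psen2, a catalytic subunit of the γ-secretase that releases the intracellular part, was higher by 1.47 log2 in untreated KO cells, the coactivator gene Maml2 by 1.25 log2 and the Dtx1 relative Dtx2 by 1.38 log2.

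Rbpj, Hes1 and Hey1 were named after their values were seen. Rbpj, the DNA-binding partner of all Notch receptors, stood at 534, 654 and 529.5 CPM in untreated WT and 318.5, 268 and 219 CPM in untreated KO libraries (-1.09 log2, SE 0.24, edgeR adjusted p = 0.0117). It was lower in treated KO cells too (-1.15 log2, SE 0.24, edgeR adjusted p = 0.00943). Hes1, a repressor gene and textbook Notch target, went the opposite way to Dtx1, from 2.29, 1.23 and 1.76 CPM in untreated WT to 5.41, 13.8 and 18.7 CPM in untreated KO libraries (2.84 log2, SE 0.55, edgeR adjusted p = 0.00585); the treated difference did not pass (1.78 log2, SE 0.56, edgeR adjusted p = 0.0555). Hey1, another target, was at most 0.256 CPM in untreated WT and 1.115 to 2.18 CPM in untreated KO libraries (3.44 log2, SE 0.87, edgeR adjusted p = 0.0216), and it did not pass in treated cells (2.70 log2, SE 1.03, edgeR adjusted p = 0.0982). Hes1 had the order of the macrophage sums within untreated KO libraries, and the part of other cells was not tested.

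**Figure D4:**
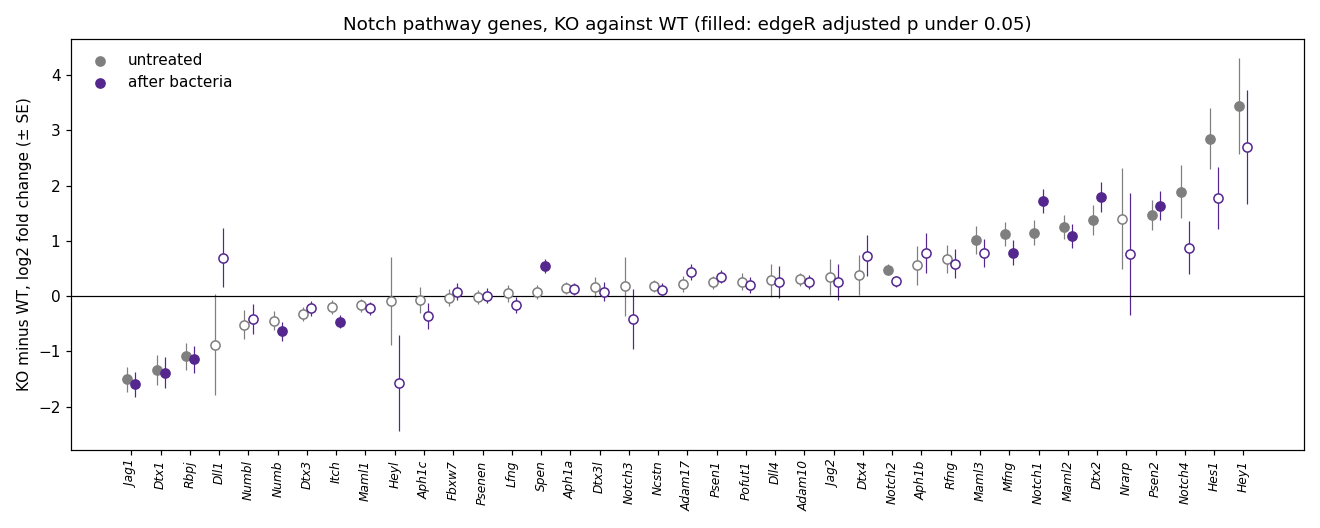
KO minus WT log2 fold change with its standard error for the 39 tested Notch pathway genes, untreated and treated; filled points passed an edgeR adjusted p of 0.05. Jag1, Dtx1 and Rbpj are the 3 lowest filled points in both conditions, and Notch1, Psen2 and Dtx2 are filled above 0 in both.

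Cd4 (ENSMUSG00000023274, chromosome 6, 124864692 to 124888221, minus strand) encodes a surface receptor for MHC class II. Untreated WT libraries had 48.6, 24.5 and 28.6 CPM, against 24.2, 13.8 and 10.15 CPM for untreated KO. Treated WT libraries had 60.46, 32.72 and 35.11 CPM, against 32.71, 16.59 and 8.411 CPM for treated KO. The library numbered 1 was the highest of each group, and KO lay below WT in each condition by a narrow margin. The difference passed neither untreated (-1.08 log2, SE 0.47, edgeR adjusted p = 0.161) nor treated (-1.15 log2, SE 0.47, edgeR adjusted p = 0.12).

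Without the libraries numbered 1 Cd4 passed both untreated (-1.15 log2, edgeR adjusted p = 0.0278) and treated (-1.43 log2, edgeR adjusted p = 0.0096), where 14.1% and 18.9% of all genes passed. With the number as a block Cd4 passed untreated (-1.11 log2, edgeR adjusted p = 0.00365) and treated (-1.26 log2, edgeR adjusted p = 0.00197). The treated difference also passed on omission of the treated KO library 1 (-1.77 log2, edgeR adjusted p = 0.0261). Of 22 alternative settings each, the untreated difference did not pass in 20 and the treated one in 19. Libraries numbered 1 had more Cd3e, part of the T cell receptor complex, at 1.498 to 1.84 CPM against 0 to 0.4265 CPM in the others. The median over 10 T cell genes was -0.19 log2 between untreated and -0.41 log2 between treated genotypes, and their sum was 278 to 485 CPM in untreated WT and 213 to 355 CPM in untreated KO libraries. Most of that sum came from list genes other than Cd3e, and which cells they came from was not tested. The part of T cell RNA in the Cd4 level was not tested.

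Clec4a4 (ENSMUSG00000059639, chromosome 6, 122990367 to 123024105, plus strand) encodes the C-type lectin DCIR2, recognised by the antibody 33D1. It stood at 18.5, 13.4 and 20.1 CPM in untreated WT and 14.9, 11.1 and 9.01 CPM in untreated KO libraries, and the groups overlapped. In treated cells the WT libraries had 18.8, 23.1 and 18.5 CPM and KO had 16.7, 11.3 and 11.6 CPM, without overlap. The difference passed neither untreated (-0.57 log2, SE 0.23, edgeR adjusted p = 0.123) nor treated (-0.61 log2, SE 0.23, edgeR adjusted p = 0.092). It passed without library 1 of the KO group concerned, untreated (-0.84 log2, edgeR adjusted p = 0.0375) and treated (-0.82 log2, edgeR adjusted p = 0.0328), and treated with the number as a block (-0.64 log2, edgeR adjusted p = 0.047). Of 22 alternative settings each, the untreated difference did not pass in 21 and the treated one in 19.

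Clec4a1, Clec4a2 and Clec4a3, lectin genes of the same family, went the opposite way and were higher in KO in both conditions. Clec4a3 stood at 4.63, 4.15 and 5.39 CPM in untreated WT and 34.7, 87.4 and 134 CPM in untreated KO libraries (4.18 log2, SE 0.52, edgeR adjusted p = 0.00063). Clec4a2 stood at 1.44, 2.72 and 2.44 CPM and 13.9, 24.9 and 37.7 CPM (3.53 log2, SE 0.48, edgeR adjusted p = 0.000998). Of the Clec4a4 transcript, 301 of 776 bases (38.8%) matched Clec4a2 over at least 100 bases at 95% identity or more, so the level of Clec4a4 is uncertain where the counting could have shared reads between these 2 genes. Within untreated KO libraries Clec4a2 and Clec4a3 had the order of the macrophage sums, whose part was not tested.

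**Figure D5:**
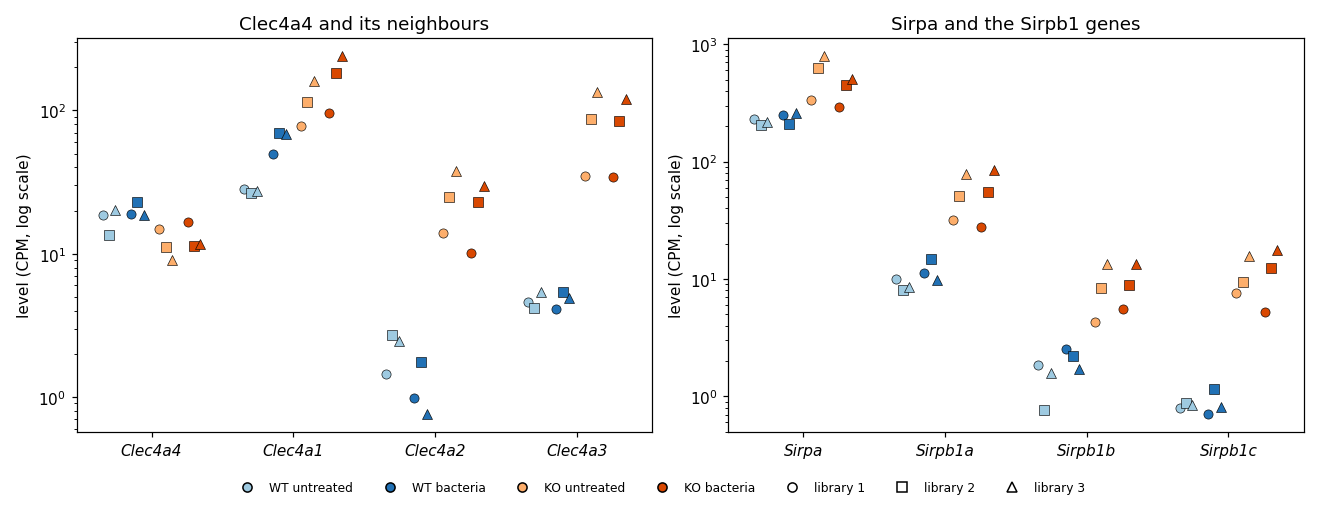
Level (CPM, log axis) of Clec4a4 beside Clec4a1, Clec4a2 and Clec4a3 and of Sirpa beside the Sirpb1 genes in each library; colours are the groups and symbols the library numbers. The 6 KO libraries are above the 6 WT libraries for all genes shown but Clec4a4.

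Esam (ENSMUSG00000001946, chromosome 9, 37528078 to 37538319, plus strand) encodes an adhesion molecule of the immunoglobulin family. Untreated WT libraries had 36.9, 34.25 and 43.3 CPM, against 23.0, 25.0 and 33.1 CPM for untreated KO. Treated WT libraries had 31.1, 23.1 and 26.1 CPM, against 24.4, 26.5 and 36.2 CPM for treated KO. The genotypes were apart when untreated and overlapped when treated. The difference passed neither untreated (-0.50 log2, SE 0.19, edgeR adjusted p = 0.103) nor treated (0.12 log2, SE 0.19, edgeR adjusted p = 0.727); the untreated one passed without the untreated KO library 3 (-0.71 log2, edgeR adjusted p = 0.0466) and with DESeq2 on all libraries (-0.53 log2, DESeq2 adjusted p = 0.0494). Of the endothelial genes, Emcn had no count in any library and Cdh5 reached 0.474 CPM, while Pecam1, which other blood cells also use, was 5.73 to 13.25 CPM in untreated WT and 106 to 208 CPM in untreated KO libraries. Kdr, a receptor gene of endothelium, was higher in KO both untreated (1.95 log2, SE 0.42, edgeR adjusted p = 0.00994) and treated (2.12 log2, SE 0.38, edgeR adjusted p = 0.00395); it and Pecam1 were the 2 tested of 8 endothelial genes. Of 5 tested platelet genes Itga2b, an integrin chain of platelets, was higher in KO (1.17 log2, SE 0.30, edgeR adjusted p = 0.0242 untreated), and the 6 platelet genes summed to 3.09 to 6.51 CPM in untreated WT and 4.51 to 5.97 CPM in untreated KO libraries. The part of endothelium and platelets in the Esam level was not tested.

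Klf4 (ENSMUSG00000003032, chromosome 4, 55527143 to 55532466, minus strand) encodes a zinc finger transcription factor. Untreated WT libraries had 90.3, 105.5 and 116 CPM, against 82.7, 50.8 and 60.0 CPM for untreated KO. Treated WT libraries had 64.9, 75.95 and 76.0 CPM, against 44.99, 40.8 and 32.7 CPM for treated KO. KO lay below WT in each condition. Klf4 was 1.61-fold lower in untreated KO cells (-0.69 log2, SE 0.18, edgeR adjusted p = 0.0231) and 1.83-fold lower in treated ones (-0.87 log2, SE 0.18, edgeR adjusted p = 0.00789). The untreated call was lost without the untreated WT library 2 (-0.72 log2, edgeR adjusted p = 0.0611) or 3 (-0.65 log2, edgeR adjusted p = 0.0905), or the untreated KO library 2 (-0.58 log2, edgeR adjusted p = 0.0884) or 3 (-0.68 log2, edgeR adjusted p = 0.089).

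Klf4 was lower in KO in both conditions, as Dtx1 was. Fitted over all 12 libraries with TMM factors and no block, Klf4 alone of the 8 also passed after bacteria in KO cells. That call was lost in 3 settings. The Klf4 promoter is shown over the 250 bases before its start in the same RefSeq table, 5′ to 3′ on its strand. Capitals mark GC boxes, GGGCGG or CCGCCC, which Sp and Klf proteins bind; there are 4 matches, of which 1 pair overlaps, and 32.7% of all promoters hold one. The RBPJ core TGGGAA or TTCCCA was in none of the 4 windows matched, Notch2 and Dtx1 included, and in 21.6% of all promoters. A match is a run of letters and not a measured site, and no match says only that these letters are not in this window.
Klf4, chr4:55532476-55532725, minus strand: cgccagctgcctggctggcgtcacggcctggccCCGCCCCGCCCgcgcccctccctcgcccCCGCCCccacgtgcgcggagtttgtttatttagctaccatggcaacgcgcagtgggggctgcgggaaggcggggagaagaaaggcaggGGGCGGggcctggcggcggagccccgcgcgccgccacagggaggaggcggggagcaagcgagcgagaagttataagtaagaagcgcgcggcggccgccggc

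How many of the 8 genes bacteria moved past the test depended on the fit, including whether the library number was used as a block. The counts given first are without a block. In WT cells 0 of 8 passed with edgeR, where 18.7% of all genes did (2676 genes, and as low as 1509 without the untreated WT library 2 or 3), and 0 of 8 passed with DESeq2 (23.9% of all genes) or limma-voom (18.8%). At an unadjusted p under 0.05 edgeR gave 2 of 8, Esam and Klf4, against 33.5% of all genes. Treated WT libraries lay below untreated ones for 3 of 8, Esam, Dtx1 and Klf4, beside 38.9% of all genes without overlap. The differences did not pass for Esam (-0.51 log2, SE 0.19, edgeR adjusted p = 0.072), Dtx1 (-0.57 log2, SE 0.27, edgeR adjusted p = 0.171) or Klf4 (-0.52 log2, SE 0.18, edgeR adjusted p = 0.057).

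With the number as a block within genotype these 3 passed, beside 31.9% of all genes: Esam (-0.52 log2, edgeR adjusted p = 0.0041), Dtx1 (-0.57 log2, edgeR adjusted p = 0.002) and Klf4 (-0.52 log2, edgeR adjusted p = 0.00289). Leaving out a KO library, which changes no WT library, also made Esam pass (untreated KO 3, -0.54 log2, edgeR adjusted p = 0.0443; treated KO 3, -0.52 log2, edgeR adjusted p = 0.0466) and Klf4 (untreated KO 1, -0.55 log2, edgeR adjusted p = 0.0233; untreated KO 2, -0.55 log2, edgeR adjusted p = 0.0424). A fit of the WT groups alone, without a block, called Esam (-0.52 log2, edgeR adjusted p = 0.0455) and Dtx1 (-0.57 log2, edgeR adjusted p = 0.0215). It also called Klf4 (-0.52 log2, edgeR adjusted p = 0.0201). Sirpa (0.13 log2), Notch2 (-0.063 log2), Cd4 (0.33 log2), Clec4a4 (0.22 log2) and Itgam (0.53 log2) passed in none of these fits. The median over the 8 genes was 0.034 log2 in WT and -0.090 log2 in KO, against -0.039 and -0.068 log2 over all genes.

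In KO cells 1 of 8 passed, beside 23.0% of all genes (3292 genes, and as low as 2132 without the untreated KO library 2 or 3): Klf4 was 1.63-fold lower after bacteria (-0.71 log2, SE 0.18, edgeR adjusted p = 0.0129). The call was lost without the untreated KO library 1 (-0.46 log2, edgeR adjusted p = 0.0669), without the treated KO library 3 (-0.58 log2, edgeR adjusted p = 0.0583) and in a fit of the KO libraries alone (-0.68 log2, edgeR adjusted p = 0.0628). With the block within genotype 4 of 8 passed, beside 34.9% of all genes: Klf4, Dtx1 (-0.67 log2, edgeR adjusted p = 0.000736), Sirpa (-0.44 log2, edgeR adjusted p = 0.00343) and Notch2 (-0.28 log2, edgeR adjusted p = 0.0325). Sirpa also passed without the untreated KO library 1 (-0.76 log2, edgeR adjusted p = 0.0174) and Dtx1 without the treated KO library 1 (-0.93 log2, edgeR adjusted p = 0.0352). Treated KO libraries lay below untreated ones for Klf4 and Notch2, 2 of 8, beside 40.3% of all genes without overlap.

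Of 14 tested Klf genes, Klf4 included, 2 rose and 1 fell in WT, and 2 rose and 4 fell in KO, where 18.7% of all genes passed in WT and 23.0% in KO. Klf6 rose in WT (1.15 log2, SE 0.14, edgeR adjusted p = 0.000149) and in KO (1.43 log2, SE 0.14, edgeR adjusted p = 2.03e-05), and Klf2 fell in KO (-0.73 log2, SE 0.20, edgeR adjusted p = 0.0178). Of 13 further cDC2 factors and markers 3 rose in WT, and 3 rose and 1 fell in KO, to be read against the same shares. Irf4 and Zeb2, transcription factor genes of cDC2 development, rose in both, Irf4 by 1.76 log2 in WT and 1.90 log2 in KO and Zeb2 by 0.96 log2 and 0.98 log2. The lectin gene Clec10a fell in KO (-1.91 log2, SE 0.54, edgeR adjusted p = 0.0225), at a low level. It went from 1.56, 1.31 and 1.90 CPM untreated to 0.240, 0.522 and 0.491 CPM treated, with 164 counts over the 12 libraries.

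Within the Notch list 4 genes rose and 5 fell in WT, and 5 rose and 3 fell in KO, beside 18.7% and 23.0% of all genes in either direction. The ligand gene Dll4 rose in WT (4.45 log2, SE 0.33, edgeR adjusted p = 6.69e-06) and in KO (4.42 log2, SE 0.33, edgeR adjusted p = 3.83e-06). Notch1 rose by 1.39 log2 in WT and 1.96 log2 in KO, and Dtx3l, a Deltex relative, by 3.06 log2 and 2.97 log2. Lfng and Mfng, glycosyltransferase genes that tune Notch receptors for their ligands, fell in both genotypes, with Lfng at -1.04 log2 in WT and -1.25 log2 in KO.

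The comparisons share groups: the WT response and the untreated genotype difference both use the untreated WT libraries. The KO response minus the WT response ran from -0.63 log2 (Sirpa, SE 0.38) to 0.61 log2 (Esam, SE 0.26). With edgeR 0 of 8 passed, beside 0.00% of all genes, and 0 of 8 with DESeq2 (0.0490% of all genes) or limma-voom (0.00%). At an unadjusted p under 0.05 edgeR gave 1 of 8, Esam, against 4.25% of all genes.

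Per length, as CPM per kilobase of the deposited gene length (RPKM), the order of levels was not the same in the 2 genotypes. The rank of a gene depends on the length used. The deposited length exceeds the longest coding transcript for Dtx1 (5270 against 4035 bases) and Esam (2867 against 1865), among others, and equals it for Clec4a4 (776). Itgam may also be counted low because of Gm49368. In untreated WT cells it was Sirpa at 44.3 ± 2.72, Klf4 at 34.05 ± 4.17, Clec4a4 at 22.35 ± 4.5, Dtx1 at 21.3 ± 2.15, Notch2 at 17.55 ± 0.245, Esam at 13.3 ± 1.63, Cd4 at 8.41 ± 3.21 and Itgam at 0.476 ± 0.0802 RPKM (mean ± SD, n = 3 in each group). Clec4a4 and Dtx1 overlapped there, as did Esam and Cd4. In untreated KO cells the levels were Sirpa at 119 ± 47.9, Notch2 at 24.5 ± 2.12, Klf4 at 21.2 ± 5.38, Clec4a4 at 15.04 ± 3.88, Esam at 9.43 ± 1.86, Dtx1 at 8.42 ± 2.25, Cd4 at 3.99 ± 1.81 and Itgam at 2.62 ± 0.688 RPKM, and only the neighbours Sirpa and Notch2, and Clec4a4 and Esam, did not overlap.

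In treated WT cells the levels were Sirpa at 48.5 ± 5.34, Clec4a4 at 25.9 ± 3.35, Klf4 at 23.7 ± 2.09, Notch2 at 16.8 ± 1.67, Dtx1 at 14.4 ± 2.25, Cd4 at 10.6 ± 3.81, Esam at 9.33 ± 1.41 and Itgam at 0.687 ± 0.231 RPKM. The neighbours Clec4a4 and Klf4 overlapped, and so did each pair of neighbours from Notch2 to Esam. In treated KO cells they were Sirpa at 84.5 ± 22.6, Notch2 at 20.2 ± 0.583, Clec4a4 at 17.0 ± 3.93, Klf4 at 12.95 ± 2.06, Esam at 10.1 ± 2.21, Dtx1 at 5.47 ± 2.27, Cd4 at 4.77 ± 3.07 and Itgam at 3.345 ± 1.38 RPKM. Neighbours overlapped there from Notch2 to Esam and from Dtx1 to Itgam.

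For 7 of the genes, all but Esam, the 2 tested genes with the most similar log2 CPM over the 12 libraries were listed by Pearson's r, as a description. The 12 libraries share groups and numbers. Sirpa was most like 1700003M07Rik (r = 0.985) and Aatk (0.972), and Itgam most like the amino acid transporter gene Slc16a10 (0.983) and Fer (0.982). Cd4 went with Phf12 (0.991) and Adamts6 (0.966), and Clec4a4 with Fdft1 (0.946) and Urb1 (0.938). Notch2 went with Unc119 (0.978) and Ermp1 (0.971), Dtx1 with Utf1 (0.961) and Flvcr1 (0.958), and Klf4 with Cyb5b (0.97) and Vkorc1l1 (0.958).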

How the data were processed

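Raw counts per gene were deposited for the 12 libraries, 1 column each; the submitters' processing notes name CASAVA 1.8, HISAT2 and mm10. Which counting tool and strand setting were used is not stated in the sources used here. The members and lists were chosen with earlier results of these data known.

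The fit used edgeR 4.0.16 (R 4.3.3) with filterByExpr, TMM factors, a robust quasi-likelihood model with a term per group over all 12 libraries, and Benjamini-Hochberg adjustment over 14293 genes at 0.05. It was also run on simulated data with the same spread for every gene and no effect of the library number. That run cannot show how the fit behaves on these libraries. SE is the absolute log2 fold change divided by the root of F. Named list genes were at most 10 a list, by smallest adjusted p.

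Alternatives were other scalings, DESeq2 1.42.0, limma-voom (limma 3.58.1), other filters, only the groups compared, replicate blocks and libraries left out. Deviations from group means correlated between same-numbered libraries across treatment (r from 0.273 to 0.543 in WT, 0.33 to 0.587 in KO) and between treated genotypes (0.146 to 0.346). The numbers were taken to pair these libraries on that ground alone, since no label says what they mark.

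Gene lengths are the deposited ones. Transcripts of GENCODE M21, whose coordinates equal the deposited ones for all 8 genes, were compared with blastn 2.17.0. The genes most like Esam are not reported here.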

Additional observations from a re-analysis of the deposited data

How the results depend on the processing

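Over the 8 genes and 5 comparisons, 896 alternative values were computed: 804 kept direction and call, 10 lost the call, 51 gained it and 31 changed direction, none of those called. The count of the 8 genes that passed moved by over 1.5 times in these settings. For bacteria in KO, 1 became 2 with upper-quartile factors, 4 with library totals alone, 0 with only the groups compared, 4 with the replicate block within genotype, 2 without replicate 1 in all groups, and 0 to 2 with single libraries left out. For bacteria in WT, 0 became 2 with upper-quartile factors, 4 with library totals, 2 with no filter, 3 with only the groups compared, 1 with the block over all groups, 3 with the block within genotype, 1 without replicate 1, and 0 to 1 with libraries left out. Between treated genotypes 3 became 5 with library totals, 6 with the block, 6 without replicate 1, and 3 to 6 with libraries left out; it was 4 with DESeq2 and 4 with only the groups compared. Between untreated genotypes 5 became 3 to 6 with libraries left out, and 6 with DESeq2. The count over all genes moved too, and the counts of the 8 genes are to be read beside it. With bacteria it ran from 1509 to 5024 in WT (2676 in the first fit) and from 2132 to 5721 in KO (3292). Between genotypes it ran from 863 to 2584 untreated (1852) and from 1028 to 2942 treated (2016). Of 80 tested pathway genes, those passing with library totals alone were 29 in WT and 31 in KO, against 18 and 19. Under that scaling the all-gene median with bacteria was -0.35 log2 in WT and -0.38 log2 in KO, and the sign changed for Sirpa (-0.18) and Clec4a4 (-0.11) in WT and Cd4 (-0.022), Clec4a4 (-0.12) and Esam (-0.22 log2) in KO.

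Untreated genotypes were not taken as paired. Between them 4 of 6 libraries had their highest r with the library of their own number, against 6 of 6 between treated genotypes. The r ranges were close (0.0873 to 0.357 untreated, 0.146 to 0.346 treated), so the ground for this distinction is weak. In both, the highest r was that of the libraries numbered 1, which had the Y-linked counts. Between untreated genotypes the block gave 7 of 8, adding Cd4 (-1.11 log2, edgeR adjusted p = 0.00365) and Esam (-0.50 log2, edgeR adjusted p = 0.0326). With libraries left out, ranges that crossed 0 were -0.35 to 0.72 for Cd4, -0.021 to 0.42 for Clec4a4 and -0.081 to 0.28 log2 for Esam with bacteria in KO, -0.001669 to 0.66 for Cd4 and -0.12 to 0.017 log2 for Notch2 in WT, and -0.071 to 0.35 log2 for Esam between treated genotypes. For the KO response minus the WT response they were -0.68 to 0.41 for Cd4, -0.24 to 0.23 for Clec4a4, -0.36 to 0.24 for Dtx1, -0.47 to 0.14 for Itgam and -0.29 to 0.086 log2 for Klf4. The cause was not tested. No block within genotype exists for genotype differences. With 3 libraries a group, Itgam (1897 counts over 12 libraries) and Clec4a4 (3327) had the lowest depth.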

Other observations

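Among 10 genes of cDC1, the other conventional DC type, 2 were higher in untreated KO than in WT cells, Naaa (1.53 log2, SE 0.39, edgeR adjusted p = 0.0223) and Tlr3 (1.70 log2, SE 0.46, edgeR adjusted p = 0.0281), and 8 did not pass with edgeR, where 9.50% of all genes were higher. In treated cells Naaa passed (1.46 log2, SE 0.39, edgeR adjusted p = 0.0284) and Tlr3 did not (0.085 log2, SE 0.42, edgeR adjusted p = 0.921), 1 of 10 in all, beside 9.21% of all genes. Xcr1, a chemokine receptor gene (-0.53 log2), Clec9a, a lectin gene (-0.22 log2), and Irf8, a transcription factor gene (0.43 log2), were among the 8. The 10 genes summed to 831 to 1142 CPM in untreated WT and 887 to 1473 CPM in untreated KO libraries, which overlapped.

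Of 6 genes shared by conventional DCs, 2 were lower in untreated KO cells, where 3.46% of all genes were. These were Zbtb46, a transcription factor gene of the lineage (-0.67 log2, SE 0.17, edgeR adjusted p = 0.0223), and Cd74, the invariant chain of MHC class II (-0.54 log2, SE 0.14, edgeR adjusted p = 0.0262). The other 4 did not pass: Itgax (0.064 log2), Flt3 (-0.14 log2) and the MHC class II genes H2-Ab1 (-0.51 log2) and H2-Aa (-0.50 log2). In treated KO cells Zbtb46 and Cd74 were again lower, 2 of 6 beside 4.89% of all genes. The 6 genes summed to 27390 to 29080 CPM in untreated WT and 17450 to 24710 CPM in untreated KO libraries. In untreated WT libraries the mean sum was 28450 CPM, of which Itgax held 770 CPM.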
